A study of Mus musculus with 6 samples.

Results

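Solute carriers are a large superfamily of membrane transporters, and 143 genes named after them were present at a readable level in the macrophages sequenced here, 3 of which (Slc9a3r1, Slc4a1ap and Slc7a6os) carry the name but are no transporters. The 143 were taken as the genes whose symbol begins with Slc followed by a family number, a letter and a member number, with a mean of at least 1 FPKM in either group of libraries. FPKM is the number of reads of a gene divided by its length and by the reads counted in its library, so levels can be compared between genes. Of the 15415 genes listed by the authors, 246 carried such a symbol. Slc2a1, Slc2a3, Slc16a3, Slc7a2, Slc7a11, Slc40a1, Slc11a1 and Slc11a2, 8 carriers of glucose, lactate, arginine, cystine and iron, were left out by name, and 95 of the other 238 stayed below the level in both groups. The level was met in both groups by 129 members, in Control libraries only by 11 and in CKO libraries only by 3. Since the level itself chose the members, differences in those 14 genes are descriptions, and the overall counts past the threshold are given with and without them.

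The libraries came from peritoneal exudate macrophages (PEMs), cells collected from the abdominal cavity of mice after an injection of starch. The genotype of the 3 CKO libraries is LysM-Cre; Tim-4 fl/fl. Cre is made there from the lysozyme gene Lyz2 and removes Tim-4 (Timd4) in myeloid cells. The 3 Control libraries were from Tim-4 fl/fl mice without Cre, and LPS is the labelled treatment of all 6. According to its methods the study used male mice aged 6 to 8 weeks throughout, and the floxed line was made in C57BL/6J mice. The methods also describe 6% starch for 3 days and LPS at 1 μg/ml for 3.5 h, without saying whether the sequenced cells were handled in this way. The genotype field of the labels is swapped between the groups relative to the titles, and the titles were followed. Nothing says that the libraries came from separate mice, so the p-values measure the spread between these libraries, which may be technical.

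Each library held between 36170767 and 42217558 counted reads. The deleted gene was read in every library first. In CKO libraries 1 to 3 Timd4 was at 0.333, 0.394 and 0.246 FPKM. The Control libraries 1 to 3 had 19.5, 12 and 1.19 FPKM, so Control library 3 lay far below the other Control libraries. Lyz2, the gene that carries Cre in this line, was at 41.4, 4656 and 106 FPKM in CKO and at 7090, 7171 and 8482 FPKM in Control, so CKO library 2 stood apart from the other CKO libraries. Results are therefore also given without CKO library 2 and Control library 3, which leaves 2 libraries in each group. Of 6 macrophage markers, which include Lyz2 and summed to 2286 to 6957 FPKM in CKO and 8805 to 10657 FPKM in Control, Adgre1, Itgam, Csf1r and Cd68 were at 83.3 FPKM or more in all 6 libraries. Mertk was low, at 6.15, 12.1 and 5.08 FPKM in CKO and 6.36, 3.55 and 0.821 FPKM in Control. Summed markers of B cells were at 2.78 to 5.52 FPKM in CKO and 27.5 to 115 FPKM in Control, those of mast cells at 1.89 to 2.25 and 37.5 to 49 FPKM, those of neutrophils (3 of 5 listed, without Ly6g and Mpo) at 41.6 to 72.9 and 160 to 174 FPKM, and those of large peritoneal macrophages at 3.53 to 6.2 and 34.3 to 140 FPKM. T cell markers (4 of 5 listed, without Trac) summed to 0.733 to 1.37 FPKM in CKO and 0.866 to 2.83 FPKM in Control, small peritoneal macrophage markers to 84 to 230 and 165 to 385 FPKM, and mesothelial and fibroblast markers to 12 to 33.7 and 2.08 to 12.9 FPKM. S100a8 made up most of the neutrophil sums. S100a9 overlapped between groups, at 0.949 to 1.21 FPKM in CKO and 0 to 5.12 FPKM in Control, and Retnlg did not. The large peritoneal macrophage markers include the deleted Timd4, and Prg4 made up most of their sums. Gata6 overlapped, at 0.158 to 0.78 FPKM in CKO and 0.117 to 1.07 FPKM in Control, while Prg4, Icam2 and Alox15 did not. Cd3e was listed at 0 in 1 library, Cd3d in 2, and S100a9 and Krt19 in 1 each. The part of these other cells in the differences described below was not tested. In such bulk samples, fewer cells of a type and less RNA per cell cannot be told apart.

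Solute carriers move nutrients, metals, ions and metabolites across the plasma membrane and the membranes of organelles, most of them by exchange or by coupling to a gradient of sodium or protons. Macrophages rely on them to take up amino acids and sugars, to empty the lysosome after digesting a particle, and to hold metals away from ingested microbes. Haem and iron from engulfed red cells leave the phagolysosome through such carriers, and zinc is moved into the cytosol by the Slc39 (ZIP) family and out of it by the Slc30 (ZnT) family.

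The most abundant member was Slc15a3, a lysosomal carrier of histidine and small peptides, with a mean of 660 FPKM over the 6 libraries. It was followed by the mitochondrial ADP/ATP carrier Slc25a5 at 211 FPKM, the mitochondrial phosphate carrier Slc25a3 at 183 FPKM, the haem transporter Slc48a1 at 129 FPKM, the lysosomal hexose transporter Slc2a6 at 125 FPKM and the amino acid transporter heavy chain Slc3a2 at 112 FPKM. These 6 were the members above 100 FPKM, 55 were above 10 FPKM, and the median member was at 6.75 FPKM. The summed level of all 143 was 3187 ± 85.2 FPKM in CKO and 3136 ± 324 FPKM in Control (SD, n = 3), a difference smaller than the spread of the Control libraries. At the edge of the selection, Slc7a6 (1.01 FPKM in Control) and Slc17a9 (1.02 FPKM in Control) lay just inside, and Slc10a6 (0.993 FPKM in Control) and Slc36a2 (0.884 FPKM in Control) just outside.

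In limma's test on log2(FPKM + 1), with Benjamini-Hochberg adjustment over 9030 genes, 11 of the 143 members (7.69%) passed an adjusted p of 0.05, beside 7.31% of all genes tested, so their share was close to the background. The 11 count Slc39a4 and Slc7a6, which reached the level in Control only. Of these, 3 were higher and 8 lower in CKO, while 2.57% of all genes were higher and 4.74% lower. Among the 129 members at the level in both groups 9 passed (6.98%; 3 higher and 6 lower), beside 5.99% of the 8314 genes of that kind (2.43% higher and 3.56% lower). The groups did not overlap for 48 members (33.6%), 14 with every CKO library above and 34 with every CKO library below, beside 34.1% of all genes. The median log2 fold change of the members was -0.14, and that of all genes tested was -0.11. A negative sign was found for 67.1% of the members, beside 63.5% of all genes. When FPKM were rescaled by the median of ratios the median of all genes moved to 0.00, and 4 members were higher and 5 lower, beside 7.45% of all genes (3.62% higher and 3.83% lower). Of the 129 at the level in both groups, 4 were then higher and 3 lower. Voom on the recovered reads also called 4 higher and 5 lower, beside 6.52% of all genes (3.3% higher and 3.22% lower), with a median of all genes of 0.02, and among the 129 the count was again 4 higher and 3 lower. When replicate numbers, which are not known to mark pairs, entered the fit as blocks, 5 were higher and 11 lower. Beside these, 9.47% of all genes passed (3.9% higher and 5.57% lower). Among the 129 there were 5 higher and 10 lower. Without CKO library 2 and Control library 3, 6 members passed (4 higher and 2 lower), beside 5.47% of all genes (1.75% higher and 3.72% lower), and 3 genes were shared by these 6 and the 11. Among the 129 there were then 4 higher and 1 lower. No member passed without CKO library 1, without CKO library 2 or without Control library 2, where 25, 27 and 28 members (17.5%, 18.9% and 19.6%) had an unadjusted p below 0.05, beside 17.8%, 16% and 19.7% of all genes. Without Control library 3, 23 members (16.1%) passed, 10 higher and 13 lower, beside 14.2% of all genes. All 11 were among them, and 20 of them (10 higher and 10 lower) were at the level in both groups.

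**Figure D1:**
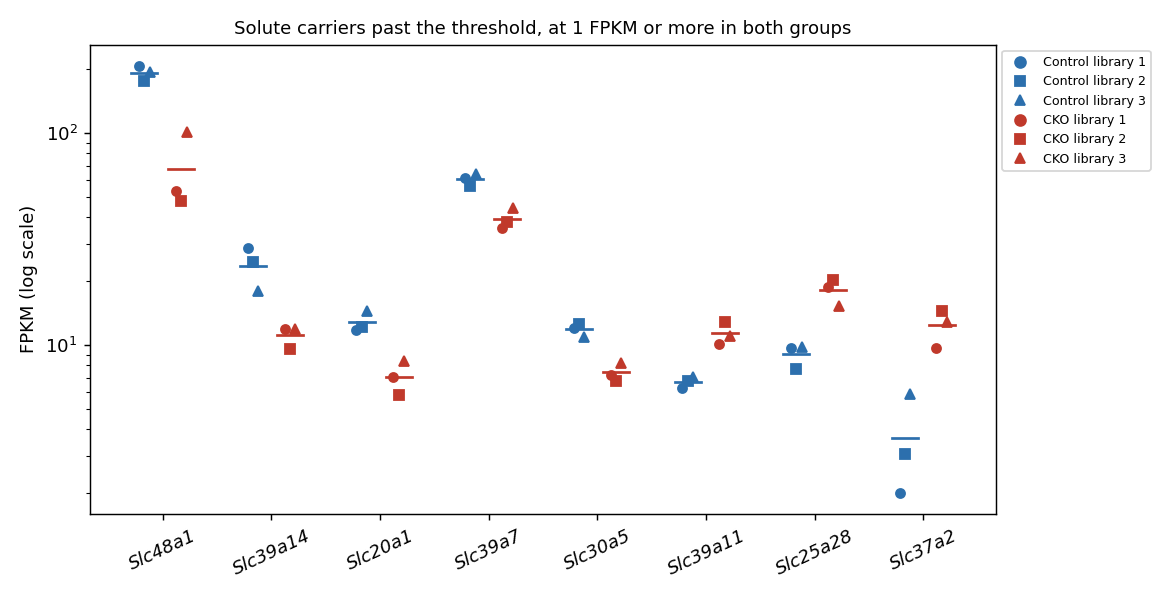
FPKM on a log scale (y axis) of 8 of the 9 solute carriers past the threshold that reached 1 FPKM in both groups, with Control libraries in blue, CKO libraries in red, a marker shape for each library number and a line at each group mean. No red point overlaps the blue points of the same gene, and Slc48a1 shows the highest level, at 47.7 to 101 FPKM in CKO and 175 to 207 FPKM in Control.

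Carriers of metals and haem were lower in CKO for 5 members and higher for 1, out of 22. The 5 were Slc48a1, Slc39a14, Slc39a7, Slc30a5 and Slc39a4, which was chosen by its level in Control only, and the 1 was Slc39a11. Together they were 27.3% of the class, beside 7.31% of all genes, and among the 19 at the level in both groups 4 were lower and 1 higher (26.3%, beside 5.99%). The class was put together with earlier results of these data known, so its share is a description. Its median log2 fold change was -0.29, beside -0.11 over all genes, and 19 of the 22 had a negative sign, or 16 after rescaling and 14 in a voom fit of the reads. Of the 19 at the level in both groups 16 had a negative sign (84.2%, beside 62.7% of all genes of that kind), or 13 after rescaling (68.4%, beside 48.9%) and 11 with voom (57.9%, beside 46.1%). In the rescaled and voom fits 1 of those 19 was higher and 1 lower past the threshold (5.26% each). The shares of all genes of that kind were 3.49% higher and 2.84% lower after rescaling, and 3.15% and 2.44% with voom. The summed level of the class was 431, 409 and 534 FPKM in CKO and 609, 614 and 682 FPKM in Control. Without Slc48a1 the sums were 391 ± 37.6 FPKM in CKO and 443 ± 43.9 FPKM in Control (SD, n = 3), and the ranges overlapped.

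Slc48a1 (HRG1) carries haem out of the phagolysosome, where red cells are broken down. Its level was 53.4, 47.7 and 101 FPKM in CKO and 207, 175 and 193 FPKM in Control. All 3 CKO libraries lay below all Control libraries, and CKO library 3 lay between the other CKO libraries and the Control libraries. The log2 fold change of FPKM + 1 was -1.57 ± 0.27 (SE; adjusted p = 0.0216, limma), and it was -1.37 (adjusted p = 0.0625) without CKO library 2 and Control library 3. Slc48a1 passed with the replicate block and after rescaling.

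The ZIP family brings zinc, and for some members iron and manganese, into the cytosol. Of the 8 members at the level in both groups 2 were lower and 1 higher (37.5%, beside 5.99% of all genes of that kind). A negative sign was found for 7 of the 8 (87.5%, beside 62.7%), for 5 after rescaling (62.5%, beside 48.9%) and for 4 with voom (50%, beside 46.1%). The other members, Slc39a4 and Slc39a10, reached the level in Control only. Slc39a14 (ZIP14), a plasma membrane importer of zinc, iron and manganese that rises in inflammation, was at 11.9, 9.52 and 11.9 FPKM in CKO and at 28.6, 24.6 and 17.9 FPKM in Control. The CKO libraries lay close together and below all Control libraries, of which library 3 was the lowest. Its log2 fold change was -1.01 ± 0.19 (SE; adjusted p = 0.0285, limma), and it was -1.09 (adjusted p = 0.0203) without CKO library 2 and Control library 3. After rescaling its adjusted p was 0.0596.

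Slc39a7 (ZIP7), which releases zinc from the endoplasmic reticulum and Golgi, was at 35.7, 38.2 and 44.3 FPKM in CKO and at 61.6, 56.2 and 64.1 FPKM in Control. The groups were apart, with a log2 fold change of -0.61 ± 0.13 (SE; adjusted p = 0.0388, limma), and the adjusted p was 0.0584 after rescaling. Without CKO library 2 and Control library 3 it was -0.56 (adjusted p = 0.139). Slc39a4 (ZIP4), best known as the zinc importer of the intestine, reached the level in Control only, at 5.53, 5.5 and 7.43 FPKM against 0.588, 0.138 and 1.84 FPKM in CKO. Its lowest library held 16 reads, and the difference is given without a test because the level chose it. Slc39a11 (ZIP11), a zinc carrier of intracellular membranes, went the other way. It was at 10.1, 12.9 and 11 FPKM in CKO and at 6.27, 6.73 and 7.08 FPKM in Control, with both groups narrow and apart. The log2 fold change was 0.68 ± 0.13 (SE; adjusted p = 0.031, limma), and it was 0.63 (adjusted p = 0.0862) without CKO library 2 and Control library 3. Slc39a1 (ZIP1), the most abundant ZIP, was at 75.3 to 85.4 FPKM in CKO and 78.5 to 85.1 FPKM in Control, with a 95% interval of the log2 fold change from -0.32 to 0.23.

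All 6 members of the ZnT family, which move zinc out of the cytosol, had a negative sign (5 after rescaling and 4 with voom), beside 63.5% of all genes (50.7% and 48.1%). In limma 1 passed (16.7%, beside 7.31% of all genes), and none did under the block, after rescaling or with voom. Slc30a5 (ZnT5), which loads zinc into the Golgi and secretory pathway, was at 7.25, 6.79 and 8.24 FPKM in CKO and at 12, 12.6 and 10.9 FPKM in Control. Every CKO library was below every Control library, with a log2 fold change of -0.61 ± 0.13 (SE; adjusted p = 0.0366, limma). Its adjusted p was 0.054 with the replicate block and 0.0608 after rescaling. The log2 fold change was again -0.61 without CKO library 2 and Control library 3 (adjusted p = 0.0939). Slc30a6, the ZnT partner that works with ZnT5 in the Golgi, was at 12.3, 10.1 and 11.1 FPKM in CKO and at 12.5, 11.6 and 12.2 FPKM in Control, and those ranges overlapped. Slc30a1 (ZnT1), the zinc exporter of the plasma membrane, was at 5.21, 5.43 and 7.72 FPKM in CKO and at 4.24, 12.2 and 15.9 FPKM in Control. Control library 1 was the lowest of all 6 and the other Control libraries were the highest, so the log2 fold change of -0.58 ± 0.41 (SE) did not pass (adjusted p = 0.391, limma). Without Control library 1 it was -1.09 (adjusted p = 0.0362), and without Control library 3 it was -0.24.

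**Figure D2:**
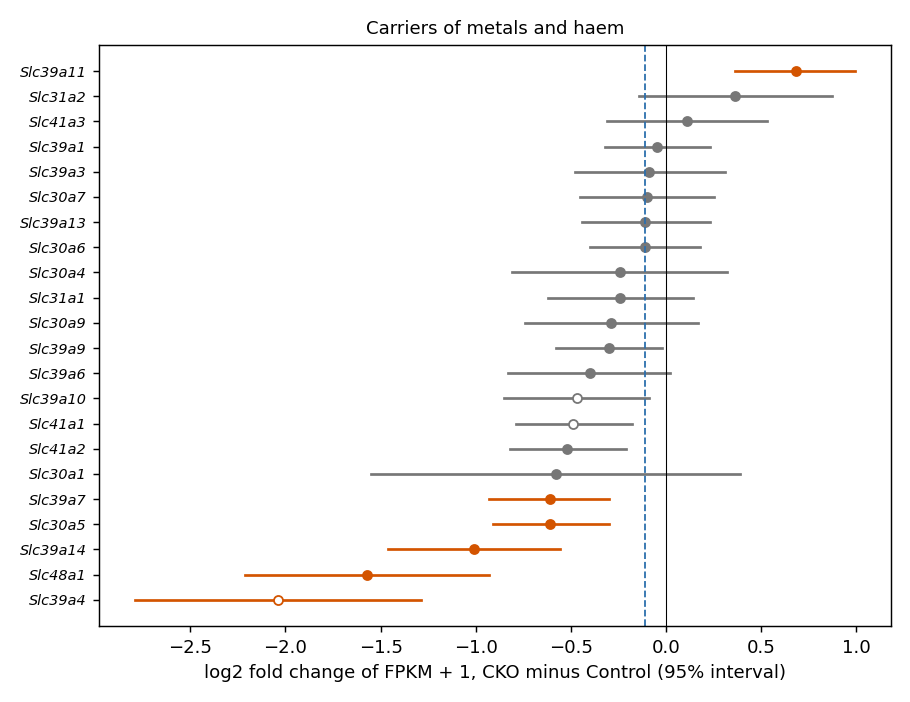
Log2 fold change of FPKM + 1, CKO minus Control (x axis, points), with 95% intervals (lines) for the 22 carriers of metals and haem, named on the y axis. Orange marks an adjusted p below 0.05, open points mark members at 1 FPKM in 1 group only, and the dashed line is the median of all genes tested. Slc39a4, an open point that the level chose, is lowest at -2.04, and Slc39a11 is highest at 0.68.

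No copper or magnesium carrier passed the threshold. Slc31a1, the high-affinity copper importer, was at 64, 56.9 and 71.4 FPKM in CKO and at 64.9, 74.4 and 89.1 FPKM in Control (log2 fold change -0.24, 95% interval -0.62 to 0.14). Slc31a2, its lysosomal relative, was at 104, 91.8 and 123 FPKM in CKO and at 61.8, 83.8 and 106 FPKM in Control, with overlapping groups. Slc41a2, a magnesium carrier, was at 9.81, 9.46 and 11.2 FPKM in CKO and at 13.5, 16 and 15.4 FPKM in Control. Those groups were apart, and the adjusted p of its log2 fold change of -0.52 was 0.0564 (limma), and 0.0495 without Control library 1.

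Zinc itself switches on some of these genes through the transcription factor MTF-1, which binds metal response elements with the core TGCACNC or TGCGCNC. The 250 bases before the RefSeq start (GRCm38.p6) were searched on both strands. A window was in the table for 18 of the 22 metal carriers, and 9 of these genes (50%) held a core, beside 35.1% of the 111 members with a window and 23.8% of the 27025 genes in the table. A match is a description of the letters and not a bound site. Of the called members with a window, Slc30a5 and Slc39a11 held a core and Slc39a7 did not. The matches nearest to a start are shown because these genes moved in opposite directions, and that of Slc30a1 because it is the textbook zinc-induced exporter. Each run is 30 bases of the gene's sense strand, with the core in capitals, read on the opposite strand in all 3.
Slc30a1, chr1:191906726-191906755, plus strand: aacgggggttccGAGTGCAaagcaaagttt
Slc30a5, chr13:100833458-100833487, minus strand: acgtgtccaccaGCGCGCAggcgcaggatt
Slc39a11, chr11:113650093-113650122, minus strand: gttaaaagggaaggaGAGCGCAgcgaaccc
The first base of the core lay 43 bases before the start in Slc30a1, 48 in Slc30a5 and 15 in Slc39a11. Slc39a11 held another core, 140 bases before a different start, which is not shown.

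Of the 31 mitochondrial carriers, which exchange metabolites and ions across the inner membrane, 1 was higher and none was lower (3.23%, beside 7.31% of all genes), and the class median of -0.07 was near that of all genes. The one was Slc25a28 (mitoferrin 2), an importer of iron for haem and iron-sulphur synthesis. It was at 18.7, 20.2 and 15.3 FPKM in CKO and at 9.63, 7.74 and 9.76 FPKM in Control. The groups were well apart, with a log2 fold change of 0.92 ± 0.15 (SE; adjusted p = 0.0204, limma), and 0.89 (adjusted p = 0.0536) without CKO library 2 and Control library 3. Its relative Slc25a37 (mitoferrin 1) was the more abundant of the pair, at 76.7, 59.2 and 77 FPKM in CKO and 59.5, 81.6 and 102 FPKM in Control, and its groups overlapped. The ADP/ATP carrier Slc25a5 was at 199, 208 and 230 FPKM in CKO and at 215, 215 and 198 FPKM in Control. Its log2 fold change was 0.02 with a 95% interval of -0.27 to 0.30, and reads could be shared with the near-identical Slc25a4.

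The citrate carrier Slc25a1, which exports carbon for fatty acid synthesis, was at 21.3, 22.2 and 20.9 FPKM in CKO and at 25.4, 18.9 and 19.9 FPKM in Control. The interval of its log2 fold change ran from -0.32 to 0.35 around 0.01. The acylcarnitine carrier Slc25a20, which feeds fatty acid oxidation, was at 6.98, 7.27 and 9.86 FPKM in CKO and at 8.71, 9.12 and 10.1 FPKM in Control (log2 fold change -0.20, interval -0.57 to 0.17). Slc25a36, a carrier of pyrimidine nucleotides, was at 1.61, 1.87 and 2.3 FPKM in CKO and at 2.85, 4.51 and 4.24 FPKM in Control. Its groups were apart, and its adjusted p (limma) was 0.0533, with 0.034 under the replicate block, 0.0452 after rescaling, 0.0309 without Control library 1 and 0.178 without CKO library 2 and Control library 3. Slc25a30 had an adjusted p of 0.144, with 0.0435 under the block and 0.496 without those 2 libraries, where its log2 fold change went from -0.58 to -0.31. The glutamate carrier Slc25a22 varied widely in Control, where it was at 37.2, 20.5 and 9.41 FPKM against 48, 42.3 and 33.1 FPKM in CKO. Its log2 fold change of 1.03 (adjusted p = 0.177, limma) was 1.48 (adjusted p = 0.0441) without Control library 1 and 0.54 (adjusted p = 0.225) without Control library 3.

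**Figure D3:**
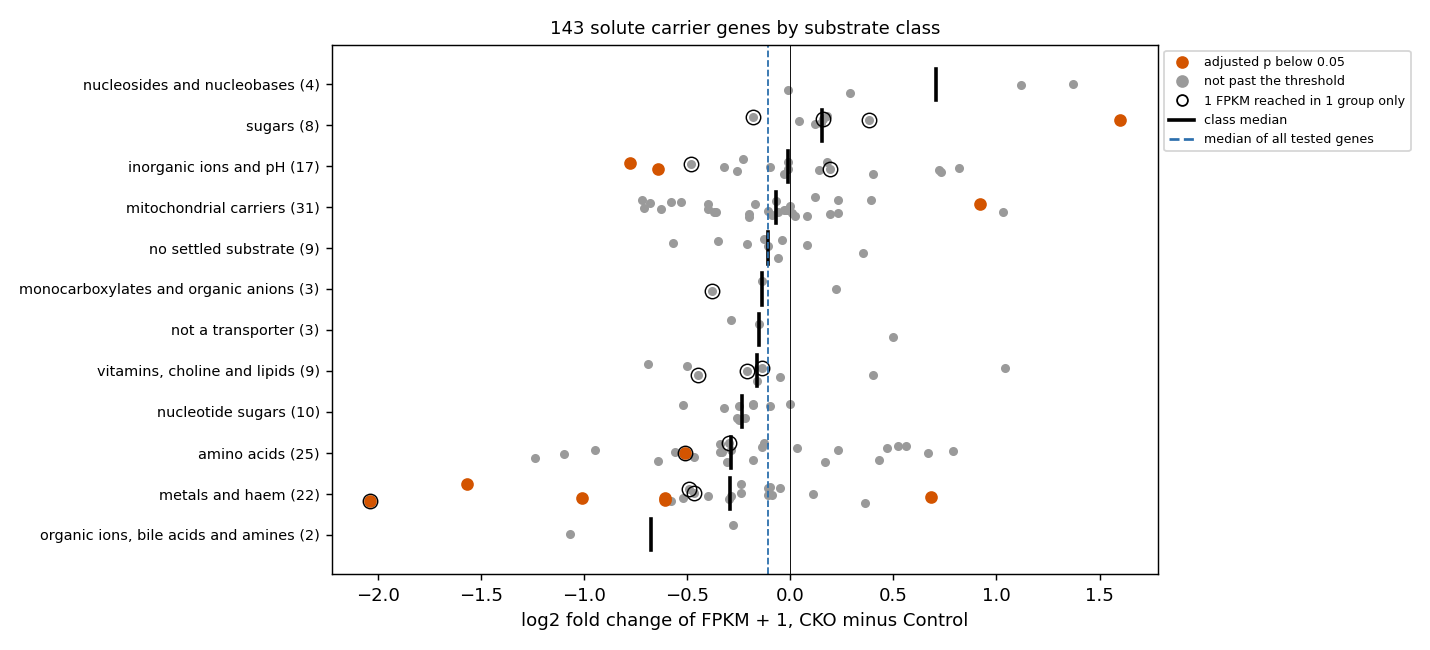
Log2 fold change of FPKM + 1, CKO minus Control (x axis), of the 143 solute carriers in rows by substrate class, with the number of members in parentheses. Orange points passed an adjusted p of 0.05, circled points reached 1 FPKM in 1 group only, black bars are class medians and the dashed line is the median of all genes at -0.11. The metal and haem row holds 6 of the 11 orange points, among them the circled Slc39a4. The row of nucleoside carriers has the highest median, 0.71.

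Among 8 sugar carriers 1 was higher past the threshold (12.5%, beside 7.31% of all genes), and it was 1 of 5 at the level in both groups (20%, beside 5.99%). Slc37a2, which exchanges glucose-6-phosphate for phosphate in the endoplasmic reticulum and is abundant in macrophages, was at 9.72, 14.5 and 12.9 FPKM in CKO and at 2.01, 3.07 and 5.84 FPKM in Control. It had the largest increase of the members that passed, 1.60 ± 0.30 on the log2 scale (SE; adjusted p = 0.0283, limma), and 1.80 (adjusted p = 0.0123) without CKO library 2 and Control library 3. Every CKO library lay above every Control library, and Control library 3 was the highest of the Control libraries. Its family members Slc37a3 (2 to 2.85 FPKM in CKO and 2.07 to 2.18 FPKM in Control) and Slc37a4, the glucose-6-phosphate carrier of glucose release (0.783 FPKM in CKO and 1.02 FPKM in Control on average), overlapped between groups. Slc2a6, the hexose transporter of the lysosome, was at 155, 135 and 111 FPKM in CKO and at 123, 108 and 119 FPKM in Control (log2 fold change 0.18, interval -0.18 to 0.54). Slc2a8 and Slc2a9 reached the level in CKO only, at 1.17 and 1.03 FPKM against 0.665 and 0.799 FPKM in Control on average, and their libraries overlapped.

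Inorganic ion and pH carriers numbered 17, of which 2 were lower and none higher (11.8%, beside 7.31%), with a median of -0.01. Slc20a1 (PiT-1), a sodium-coupled phosphate importer, was at 7.09, 5.8 and 8.4 FPKM in CKO and at 11.7, 12.2 and 14.5 FPKM in Control. The groups were apart, with a log2 fold change of -0.78 ± 0.16 (SE; adjusted p = 0.0352, limma), and -0.57 (adjusted p = 0.117) without CKO library 2 and Control library 3. Slc20a2 (PiT-2), the other member of its family, was at 1.58, 2.05 and 1.95 FPKM in CKO and at 2.19, 2.07 and 1.94 FPKM in Control, with overlapping groups.

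Potassium-chloride cotransporters lower cell volume. Slc12a4 (KCC1), the most abundant member of the class, was at 42.3, 39.9 and 33.1 FPKM in CKO and at 34.2, 27.8 and 24.8 FPKM in Control. Slc12a7 (KCC4) was at 6.03, 9.31 and 5 FPKM in CKO and at 3.31, 2.7 and 3.99 FPKM in Control. Neither passed, with log2 fold changes of 0.40 (adjusted p = 0.169, limma) and 0.82 (adjusted p = 0.0693), and that of Slc12a7 had an adjusted p of 0.0459 without Control library 3.

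Sodium-proton exchangers set the pH of the cytosol and of endosomes. The endosomal Slc9a9 was at 4.14, 3.4 and 4.16 FPKM in CKO and at 1.38, 1.82 and 2.88 FPKM in Control, apart, with an adjusted p of 0.0689 (limma) that became 0.0357 after rescaling and lay between 0.0106 (without Control library 3) and 0.219 with a library left out. Slc9a4 was at 1.46, 2.2 and 3.04 FPKM in CKO and at 0.274, 0.885 and 1.88 FPKM in Control, with an adjusted p of 0.184, of 0.0375 under the block, and between 0.0405 (without Control library 3) and 0.412 with a library left out. The scaffold gene Slc9a3r1, which is named after an exchanger but is no transporter, was at 46.6, 55.6 and 36.3 FPKM in CKO and at 37.4, 34.3 and 25.3 FPKM in Control. Slc26a11, a sulphate carrier, averaged 0.383 FPKM in CKO and 1.03 FPKM in Control and reached that level through Control library 3 alone, at 2.03 FPKM. Slc8a1, the sodium-calcium exchanger, averaged 1.13 FPKM in CKO and 0.861 FPKM in Control.

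Amino acid and peptide carriers formed a class of 25, in which the Control libraries were far apart from each other. Among the 23 at the level in both groups none passed in limma, 9 had an unadjusted p below 0.05 (39.1%, beside 25.2% of all genes at the level in both groups), and 14 had a negative sign (60.9%, beside 62.7%). With the replicate block 3 of the 23 were lower past the threshold, beside 4.35% of all genes at the level in both groups, and with voom none passed. The median range of the Control libraries over the class was 0.93 on the log2 scale, beside 0.43 over all genes, while that of the CKO libraries was 0.41, beside 0.26. Control library 3 was the highest Control library for 20 of the 25 members (80%), beside 50.1% of all genes. The summed level was 1315, 1322 and 1339 FPKM in CKO and 1020, 986 and 1438 FPKM in Control. Without Slc15a3 the sums were 525, 515 and 643 FPKM in CKO and 414, 529 and 834 FPKM in Control. The means of CKO and Control were 1325 and 1148 FPKM with Slc15a3, and 561 and 592 FPKM without it. Control library 3 was also the library with the lowest Timd4 of its group, and the part of whatever set it apart was not tested.

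Slc7a5 (LAT1) imports leucine and other large neutral amino acids as a dimer with the heavy chain Slc3a2 (CD98). Slc7a5 was at 35.3, 31.4 and 53.6 FPKM in CKO and at 9, 24.8 and 60.5 FPKM in Control, a 6.72-fold range within Control that enclosed all CKO libraries. The log2 fold change of 0.67 ± 0.60 (SE) did not pass (adjusted p = 0.493, limma), and it was 1.47 (adjusted p = 0.128) without CKO library 2 and Control library 3, 1.32 without Control library 3 and 0.01 without Control library 1. Slc3a2 was at 90.3, 70.5 and 105 FPKM in CKO and at 99.6, 110 and 198 FPKM in Control, with a log2 fold change of -0.56 (interval -1.22 to 0.10). It was -0.26 without Control library 3 and -0.10 without CKO library 2 and Control library 3. Neither chain passed. The arginine and lysine importer Slc7a1 (CAT1) was at 29.6, 30.8 and 48.1 FPKM in CKO and at 9.53, 24.1 and 55.7 FPKM in Control, a 5.84-fold range within Control.

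Slc38a2 (SNAT2), a sodium-coupled importer of small neutral amino acids that is induced when amino acids run short, was at 32.8, 29.4 and 63.6 FPKM in CKO and at 23.7, 56 and 85.4 FPKM in Control. Its log2 fold change of -0.29 (interval -1.42 to 0.84) turned to 0.32 without CKO library 2 and Control library 3. Slc1a5 (ASCT2), the glutamine exchanger, was at 16.6, 20.1 and 19.6 FPKM in CKO and at 15.5, 19 and 29.4 FPKM in Control (interval -0.67 to 0.41). The efflux carrier of large neutral amino acids Slc43a2 (LAT4) was at 2.72, 3.31 and 5.11 FPKM in CKO and at 4.94, 8.24 and 16.7 FPKM in Control. Only CKO library 3 and Control library 1 overlapped, and the adjusted p (limma) was 0.124, with 0.0277 under the replicate block. Its log2 fold change was -1.10, with -1.47 (adjusted p = 0.0447) without Control library 1, -0.69 without Control library 3 and -0.64 (adjusted p = 0.31) without CKO library 2 and Control library 3. The glycine carrier Slc6a9 and the betaine carrier Slc6a12 likewise had adjusted p-values of 0.173 and 0.1, with 0.0151 and 0.0326 under the block, and log2 fold changes of -1.24 and -0.95. Without CKO library 2 and Control library 3 these were -0.58 (adjusted p = 0.506) and -0.54 (adjusted p = 0.329), and that of Slc6a9 was -0.72 without Control library 3. Slc6a12 passed without CKO library 3 (adjusted p = 0.0277).

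Other carriers of the class had higher values in CKO. Slc6a8, the creatine importer, was at 44.3, 46.3 and 43.8 FPKM in CKO and at 18, 24 and 37.8 FPKM in Control. Slc6a6, the taurine importer, was at 97.2, 120 and 95 FPKM in CKO and at 76.8, 65.6 and 73.7 FPKM in Control. In both genes the groups were apart, with log2 fold changes of 0.79 (adjusted p = 0.0954, limma) and 0.52 (adjusted p = 0.0694), and Slc6a8 had an adjusted p of 0.0343 without CKO library 2 and Control library 3, and between 0.00717 (without Control library 3) and 0.289 with a library left out. The lysosomal Slc15a3 was at 790, 808 and 696 FPKM in CKO and at 606, 457 and 604 FPKM in Control, also apart. Its log2 fold change was 0.47 (adjusted p = 0.11, limma), with an interval of 0.10 to 0.84. Its homologue Slc15a4, a histidine and peptide carrier needed for signalling by endosomal Toll-like receptors, was at 3.23, 2.93 and 4.3 FPKM in CKO and at 2.84, 4.3 and 7.65 FPKM in Control, with overlapping groups. Slc7a6, which exchanges cationic and neutral amino acids, reached the level in Control only, at 0.957, 0.97 and 1.1 FPKM against 0.371, 0.412 and 0.455 FPKM in CKO. It overlaps Slc7a6os, whose strand could not be separated here because the counting is not given in the sources used.

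**Figure D4:**
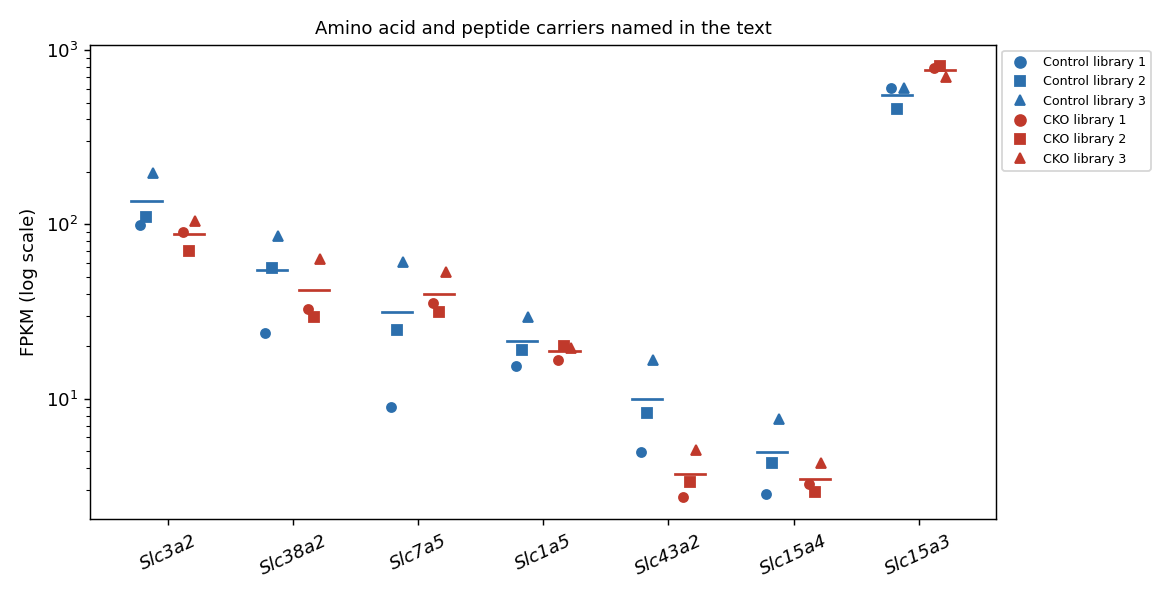
FPKM on a log scale (y axis) of 7 amino acid and peptide carriers, with Control libraries in blue, CKO libraries in red, a marker shape for each library number and a line at each group mean. Control library 3 is the highest Control library for 6 of the 7 genes, and for Slc7a5 the Control libraries run from 9 to 60.5 FPKM around the CKO libraries at 31.4 to 53.6 FPKM.

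The 4 nucleoside and nucleobase carriers had the highest class median, 0.71. No member passed in limma or voom, beside 7.31% and 6.52% of all genes. An unadjusted p below 0.05 was found for 1 (25%, beside 27.6% of all genes). Under the block 1 was called higher (25%, beside 3.9%). Slc29a3 (ENT3), which releases nucleosides from the lysosome and whose loss causes a histiocytosis, was at 34.8, 41.8 and 26 FPKM in CKO and at 10.1, 14 and 23.2 FPKM in Control. Every CKO library was above every Control library, the log2 fold change was 1.12 ± 0.30 (SE; adjusted p = 0.0673, limma), and the adjusted p was 0.0343 without CKO library 2 and Control library 3. With a library left out it lay between 0.0107 (without Control library 3) and 0.245. Slc28a2 (CNT2), a sodium-coupled purine nucleoside importer, was at 40.3, 57.3 and 21.1 FPKM in CKO and at 28.4, 19.6 and 4.1 FPKM in Control. Its groups overlapped, with an adjusted p of 0.222 (limma) and of 0.0475 under the replicate block. Slc29a1 (ENT1) and Slc43a3, the other members, had log2 fold changes of 0.29 and -0.01 with overlapping groups. The log2 fold change of Slc28a2 was 1.37 with all libraries and 0.30 without CKO library 2 and Control library 3, and reads could be shared with the near-identical copy Slc28a2b. The class sums were 82.2, 107 and 57.6 FPKM in CKO and 43.6, 39.4 and 38.6 FPKM in Control.

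**Figure D5:**
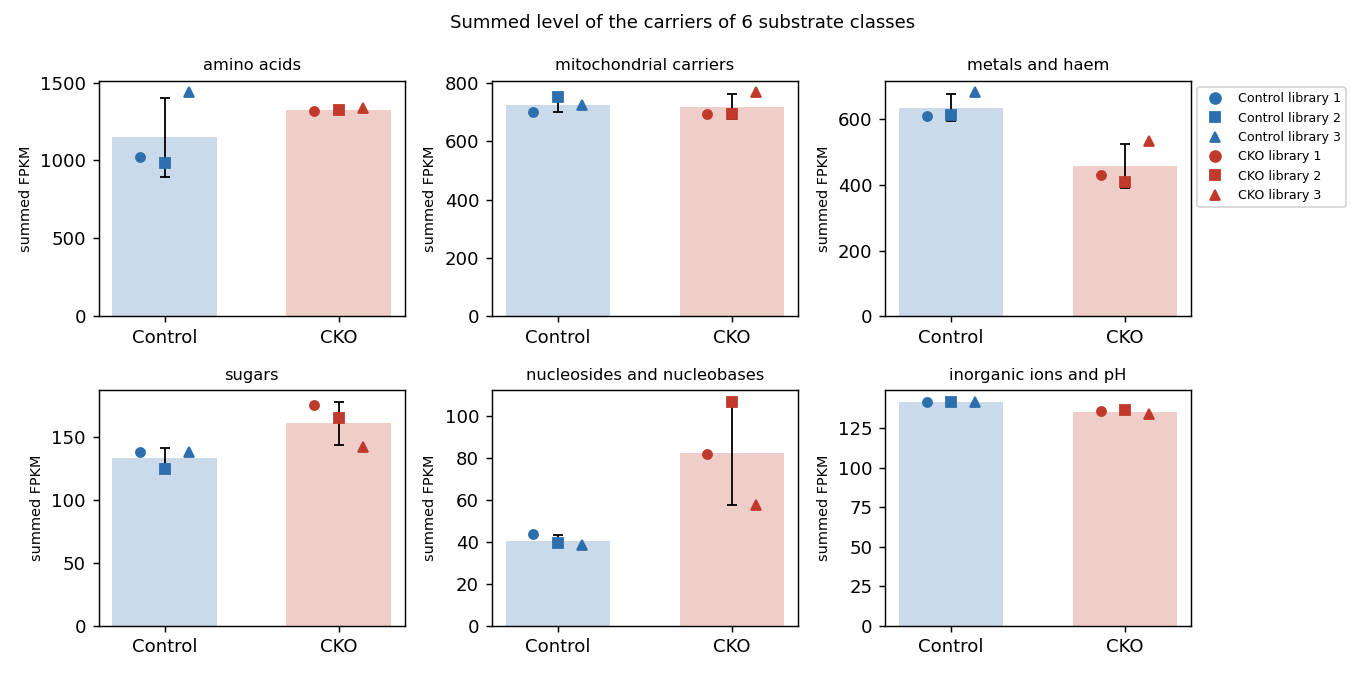
Summed FPKM (y axis) of the carriers of 6 substrate classes in Control (blue) and CKO (red), with bars for the mean, error bars for 1 SD (n = 3) and a marker shape for each library number. All CKO libraries lie below all Control libraries for metals and haem (409 to 534 against 609 to 682 FPKM), and above them for nucleosides (57.6 to 107 against 38.6 to 43.6 FPKM).

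The carriers of nucleotide sugars into the Golgi and endoplasmic reticulum were taken by family as 10 members, not all of which carry nucleotide sugars. None of the 10 passed in limma, under the block or with voom. None had an unadjusted p below 0.05 (beside 27.6% of all genes), and the median was -0.23. A negative sign was found for 9 of them, beside 63.5% of all genes, and for 8 after rescaling and with voom (80%, beside 50.7% and 48.1%). The most abundant, Slc35b1, the ATP/ADP exchanger of the endoplasmic reticulum that is grouped here by its family, was at 20.1, 21 and 23.7 FPKM in CKO and at 22.1, 26.2 and 27.5 FPKM in Control. Of the 9 carriers of vitamins, choline and lipids none passed in these fits, and the median was -0.16. An unadjusted p below 0.05 was found for 4 (44.4%, beside 27.6% of all genes). Among the 6 at the level in both groups it was found for 3 (50%, beside 25.2%). The vitamin C transporter Slc23a2 was at 31.9, 31.2 and 29.1 FPKM in CKO and at 35, 35.5 and 33.2 FPKM in Control, a small gap with groups apart (adjusted p = 0.383, limma). The fatty acid carrier Slc27a1 was at 16.1, 18.5 and 25.2 FPKM in CKO and at 4.41, 8.44 and 18.5 FPKM in Control, with a log2 fold change of 1.04 and an adjusted p of 0.172. Without Control library 3 these were 1.53 and 0.0166, and without Control library 1 the log2 fold change was 0.60.

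There were 2 carriers of organic ions, 3 of monocarboxylates and organic anions, and 9 with no settled substrate. None passed in limma or voom, beside 7.31% and 6.52% of all genes. In each class 1 had an unadjusted p below 0.05 (50%, 33.3% and 11.1%, beside 27.6% of all genes). That of the monocarboxylate class was Slc17a9, which reached the level in Control only. Of the 2 members of that class at the level in both groups, none had such a p. Slc22a4 (OCTN1), the ergothioneine importer, was at 2.45, 1.67 and 3.53 FPKM in CKO and at 3.85, 6.29 and 9.86 FPKM in Control. Those groups were apart and the log2 fold change was -1.07. Its adjusted p was 0.0843 in limma and 0.0364 under the block. It was 0.0374 without Control library 1, and 0.25 without CKO library 2 and Control library 3, where the log2 fold change was -0.59. The lactate and pyruvate carrier Slc16a1 (MCT1) was at 3.75, 4.64 and 2.75 FPKM in CKO and at 2.65, 4.03 and 2.48 FPKM in Control, with overlapping groups. The vesicular nucleotide transporter Slc17a9, which loads ATP into vesicles and lysosomes, averaged 0.546 FPKM in CKO and 1.02 FPKM in Control. Among the carriers with no settled substrate, the most abundant was Slc35a4, at 15.4 to 16.8 FPKM in CKO and 15.1 to 18.3 FPKM in Control.

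Transporters outside the Slc symbols were read from a list of 58 genes, of which 44 were tested. Of these 2 were higher and 2 lower (9.09%, beside 7.31% of all genes), with a median log2 fold change of -0.10. Mfsd12, a lysosomal cysteine importer, was at 39.9, 48.3 and 39.5 FPKM in CKO and at 6.49, 11.9 and 20.9 FPKM in Control (log2 fold change 1.76, adjusted p = 0.0326, limma). Abcg1, which exports cholesterol to lipoproteins, was at 2.92, 2.77 and 2.51 FPKM in CKO and at 1.5, 1.65 and 1.38 FPKM in Control (0.57, adjusted p = 0.0345). The multidrug and leukotriene exporters Abcc1 and Abcc4 were lower, with log2 fold changes of -1.32 (adjusted p = 0.0196) and -1.07 (adjusted p = 0.0254). In all 4 genes no CKO library overlapped a Control library.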

How the data were processed

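RNA of PEMs was sequenced in 6 libraries, 3 CKO and 3 Control, grouped by title. The submitters' processing notes name the build mm9. The aligner, the counting, its use of strand and the annotation are not given in the sources used here. The FPKM per library were made by the authors. The deposited signal columns hold group means of size-factor-scaled read counts. The deposited fold change (ratio), its log2, p-value and q-value columns are the authors' own comparison and were not used. Every gene listed has a mean of at least 1 in the authors' scaled counts. The FPKM and group means together gave back whole reads (100% whole within 0.02 reads), which gave the depths stated and the input of voom. Since per-library values were FPKM, the count model named for counts was not the main test.

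Values were fitted as log2(FPKM + 1) with limma 3.58.1 (lmFit, eBayes with trend, two-sided) in R 4.3.3 over 9030 genes with a mean of at least 1 FPKM in a group, with Benjamini-Hochberg adjustment and a threshold of 0.05. Low genes have their fold changes understated on this scale. Every adjusted p-value is from limma. Classes have no test of their own. Some members are counted but not reported here by name. The members, classes and lists were chosen with earlier results of these data known, and 4 members (Slc49a4, Slc66a2, Slc4a1ap and Slc7a6os) were classed after the table was seen. Classes follow the carrier families. Genes named are the members past the threshold (up to 12 each way), the most abundant of each class, 3 on either side among those at the level in 1 group only, 2 either side of the level, and 16 carriers known from activated macrophages; others were named after their values were seen. Replicate numbers were checked for pairing. Deviations of same-numbered libraries correlated at 0.11, 0.11 and 0.30, and other pairs between -0.33 and 0.29. CKO library 2 with Control library 1 reached 0.29, above the same-numbered pairs at 0.11, so this check does not settle a pairing. Only the numbers in the titles link the libraries, and the fit with the number as a block is an alternative. The 12 alternatives were no filter, a pseudocount of 0.1, the block, a median-of-ratios rescaling, voom, each library left out, and CKO library 2 with Control library 3 left out, the last added after seeing the data. The fits were tested on simulated data. Promoter windows are from RefSeq (GRCm38.p6) and were matched by symbol for 111 of 143 members. Their coordinates are not those of the authors' build.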

Additional observations from a re-analysis of the deposited data

How the results depend on the processing

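Among all 9030 genes the number past the threshold lay between 8 and 1278 when a library was left out. For the solute carriers it lay between 0 and 23 (higher, 0 to 10; lower, 0 to 13), and it was 5 with no filter on low values (3 lower) and 6 without CKO library 2 and Control library 3 (2 lower). The replicate block called 5 higher, and rescaling and voom called 5 lower each. With no filter 15415 genes were adjusted for. The cause of the other shifts was not tested.

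Class medians moved by more than the spread of libraries for inorganic ions (0.14 with voom), rows that are no transporter (-0.25 with a pseudocount of 0.1 and -0.08 rescaled), nucleosides (0.91 with voom, 0.46 to 0.75 with a library left out, lowest without Control library 1, and 0.49 without CKO library 2 and Control library 3), nucleotide sugars (-0.12 rescaled and -0.13 with voom) and sugars (0.36 with voom). The replicate block changed the call of 11 members, 9 of them given above with their blocked values, and of no other member.

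Of 480 values of 40 named genes, 379 kept direction and side of the threshold, 58 were no longer past it, 14 were newly past it, 13 without a test moved, and 16 changed sign, in 7 genes. None of these 7 passed. With single libraries left out, log2 fold changes lay between -0.32 and 0.11 for Slc1a5, -0.07 and 0.14 for Slc25a1, -0.04 and 0.07 for Slc25a5, -0.79 and 0.11 for Slc38a2, -0.61 and -0.02 for Slc15a4, and 0.08 and 0.38 for Slc16a1. The sign turned for Slc1a5 and Slc38a2 without Control library 3, for Slc25a1 without CKO library 2 (-0.01), Control library 2 or Control library 3 (-0.03), and for Slc25a5 without CKO library 3 or Control library 3 (-0.02). Without both CKO library 2 and Control library 3 the values were 0.07 for Slc1a5, -0.05 for Slc25a1, -0.01 for Slc25a5, 0.32 for Slc38a2, 0.07 for Slc15a4 and -0.02 for Slc16a1. With voom Slc1a5 was at 0.01 and Slc35a4 at 0.08, and rescaled Slc35a4 was at 0.05.

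The lowest count of a member in a library was 16 reads (Slc39a4), and each group had 3 libraries. The part of depth and of the number of libraries in the calls was not tested.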
